A study of Mus musculus with 20 samples.

Results

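The 44 genes described here encode the machinery that separates replicated chromosomes. They were taken by symbol and fall into 7 roles: 8 mitotic kinases and checkpoint proteins, 4 subunits of the chromosomal passenger complex, 6 proteins of the centromere and kinetochore, 7 mitotic kinesins, 8 factors of spindle assembly and cytokinesis, 4 regulators of anaphase and mitotic entry, and 7 components of condensin and mitotic chromosome structure. Each of the 44 had a row in both count tables, which held 16740 genes for pooled spleen and peripheral lymph nodes (pLNs) and 16784 genes for mesenteric lymph nodes (mLN). The rule takes symbols and uses no measured value, but the members were chosen with earlier results of these data known. Counts of members that passed are therefore a description, given beside the share of all genes. In the GENCODE annotation of NCBIM37 (mm9) the genes lie on 15 chromosomes.

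RNA was sequenced from T cells of C57BL/6 mice that were 14 weeks old. WT mice carried the Foxp3Cre allele alone, in which a YFP-Cre fusion is expressed under the Foxp3 locus, and DKO (Tet2/3 fl/fl) mice carried Foxp3Cre together with floxed alleles of both Tet2 and Tet3, so that both enzymes, which oxidise 5-methylcytosine in DNA, are lost in cells that express Foxp3. From each genotype CD4+YFP+ cells (regulatory T cells, Treg cells) and CD4+YFP- cells (CD4+Foxp3- T cells) were sorted, with 2 libraries per group from spleen and pLNs and 3 per group from mLN, 20 libraries in all. Both genotypes thus share Cre and YFP. In DKO mice the CD4+Foxp3- cells did not express Cre when sorted, but cells that had lost Foxp3 would be sorted with them.

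Each library held between 13525932 and 15253141 counted reads in the spleen and pLN table and between 9998478 and 15449158 in the mLN table, and the 44 genes together took 5164 to 20183 and 7492 to 31633 of them. Foxp3 lay between 153 and 419 CPM (counts scaled to each library's TMM-normalised total) in the Treg libraries and at 2.75 CPM or less in every CD4+Foxp3- library, and Cd3e, a subunit of the T cell receptor complex, lay between 474 and 791 CPM in all 20. Counts over whole genes do not check the deletion, since floxed alleles remove part of a gene: Tet2 lay at 1.11 to 2.08 CPM in WT and 2.05 to 8.01 CPM in DKO Treg cells of spleen and pLNs, and at 10.4 to 10.8 and 7.69 to 12.8 CPM in mLN. Both DKO animals of the spleen and pLN set were littermates, and the study describes more severe splenomegaly in one of the pair, but the labels do not say which replicate it was.

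A cell that enters mitosis builds a bipolar spindle, attaches each chromosome to it through the kinetochore, and holds anaphase back until the spindle checkpoint is satisfied. The genes for these steps are transcribed late in the cell cycle, mostly in G2 and M phase, and are low in resting lymphocytes, so their summed mRNA is widely used as a marker of dividing cells. Many of their promoters carry a cell cycle genes homology region (CHR), which the DREAM complex binds in resting cells and the MuvB-B-MYB and FOXM1 complexes bind in G2, together with CCAAT boxes, which NF-Y binds. In bulk libraries a larger share of dividing cells and more mRNA in each of them cannot be told apart.

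The promoter sequences show what the members share outside the counts. RefSeq promoters (GRCm38.p6, from 250 bases before to 50 bases after a gene start) matched 37 of the 44 members, with 39 promoters. Incenp, Tpx2, Aurkb, Kif20a, Smc4, Dlgap5 and Cdc25c had no entry. A CHR was searched as TTTGAA or TTCGAA and a CCAAT box as CCAAT, both on either strand and allowing overlaps, which occur in Cdca8 and Ube2c. At least 1 CHR was found in 29 of the 37 members (78.4%), against 21.7% of the 27025 genes with a promoter in the table, and a CCAAT box in 27 members (73.0%), against 41.1% of genes. Both motifs were present in 25 members (67.6%) and in 8.61% of genes, and 16 members (43.2%) but 2.68% of genes had a CHR with 2 or more CCAAT boxes. In 26 members a CHR lay within 50 bases of the start. Neither motif was found in the windows of Birc5, Mad2l1, Melk, Ncaph, Nuf2 and Nusap1. These are matches to letters and not measured binding.

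To show this arrangement in members whose levels are given further on, the promoters of 6 members from 6 roles are printed 5′ to 3′ on the gene's strand, with each CHR and CCAAT box in capitals (ATTGG and TTCAAA are the reverse-strand forms). All 39 promoters matched NCBIM37 exactly once. These 6 lie there at chr7:129302699-129302998 (+) for Plk1, chr4:118109899-118110198 (-) for Cdc20, chr5:30969009-30969308 (+) for Cenpa, chr15:99482038-99482337 (-) for Racgap1, chr7:134185885-134186184 (-) for Kif22 and chr11:98885454-98885753 (-) for Top2a.
Plk1: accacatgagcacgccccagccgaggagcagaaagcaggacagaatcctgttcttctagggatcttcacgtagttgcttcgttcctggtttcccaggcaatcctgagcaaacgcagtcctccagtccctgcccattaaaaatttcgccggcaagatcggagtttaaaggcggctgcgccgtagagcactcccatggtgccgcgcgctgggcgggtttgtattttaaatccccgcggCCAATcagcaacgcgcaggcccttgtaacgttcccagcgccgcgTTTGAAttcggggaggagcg
Cdc20: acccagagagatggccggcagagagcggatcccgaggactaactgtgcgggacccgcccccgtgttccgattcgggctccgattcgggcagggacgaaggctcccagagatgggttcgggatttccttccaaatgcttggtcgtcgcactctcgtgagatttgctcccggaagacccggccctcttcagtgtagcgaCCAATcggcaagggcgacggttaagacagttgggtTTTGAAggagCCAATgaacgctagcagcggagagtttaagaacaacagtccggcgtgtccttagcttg
Cenpa: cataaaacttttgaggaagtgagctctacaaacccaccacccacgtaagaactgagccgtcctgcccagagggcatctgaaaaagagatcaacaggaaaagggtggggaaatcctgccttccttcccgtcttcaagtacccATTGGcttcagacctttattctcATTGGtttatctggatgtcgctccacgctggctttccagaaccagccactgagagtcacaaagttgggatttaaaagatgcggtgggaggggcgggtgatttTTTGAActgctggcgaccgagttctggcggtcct
Racgap1: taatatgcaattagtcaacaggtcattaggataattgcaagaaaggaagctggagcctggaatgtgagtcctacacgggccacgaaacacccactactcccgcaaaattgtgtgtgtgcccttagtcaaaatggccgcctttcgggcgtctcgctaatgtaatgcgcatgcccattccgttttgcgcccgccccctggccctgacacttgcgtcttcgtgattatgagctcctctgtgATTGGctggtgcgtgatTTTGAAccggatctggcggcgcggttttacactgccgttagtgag
Kif22: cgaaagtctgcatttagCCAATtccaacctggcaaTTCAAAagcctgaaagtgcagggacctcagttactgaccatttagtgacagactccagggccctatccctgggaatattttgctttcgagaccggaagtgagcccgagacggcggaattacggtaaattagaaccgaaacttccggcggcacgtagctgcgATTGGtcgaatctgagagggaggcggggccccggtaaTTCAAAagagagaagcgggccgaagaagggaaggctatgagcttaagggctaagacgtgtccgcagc
Top2a: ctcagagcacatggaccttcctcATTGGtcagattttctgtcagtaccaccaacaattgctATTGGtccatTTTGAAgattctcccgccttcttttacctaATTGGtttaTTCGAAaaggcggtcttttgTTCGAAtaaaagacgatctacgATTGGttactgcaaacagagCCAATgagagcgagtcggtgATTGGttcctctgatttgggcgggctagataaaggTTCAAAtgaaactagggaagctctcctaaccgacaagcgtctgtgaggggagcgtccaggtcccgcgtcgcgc

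In Plk1 the CHR began 30 bases after the start and the CCAAT box 14 bases before it. Cdc20 had CCAAT boxes beginning 53 and 8 bases before the start with the CHR between them, at 18 bases before. Top2a was the richest of those shown, with 4 CHR and 6 CCAAT matches.

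The mean level of the 44 genes was higher in DKO than in WT libraries in both cell types and both tissues. In mLN the mean of the log2 CPM was 3.22, 3.60 and 3.73 in the WT Treg libraries and 4.65, 5.14 and 4.90 in the DKO Treg libraries, a difference of 1.38, or 2.61-fold. In mLN CD4+Foxp3- cells it was 2.61, 2.75 and 2.70 in WT and 3.23, 3.39 and 3.61 in DKO mice, a difference of 0.72. The groups did not overlap in either case, and the DKO CD4+Foxp3- libraries reached the range of the WT Treg libraries. In spleen and pLNs it was 2.62 and 2.57 in WT Treg cells against 3.91 and 3.36 in DKO Treg cells, and 2.35 and 2.29 in WT against 3.71 and 2.73 in DKO CD4+Foxp3- cells. There the DKO replicates lay 0.54 apart in Treg libraries and 0.98 apart in those of CD4+Foxp3- cells, replicate 1 being the higher in each, while the WT replicates lay close together. The mean is given as a description with no test, and the tables were normalised separately, so levels are compared within a tissue only.

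**Figure D1:**
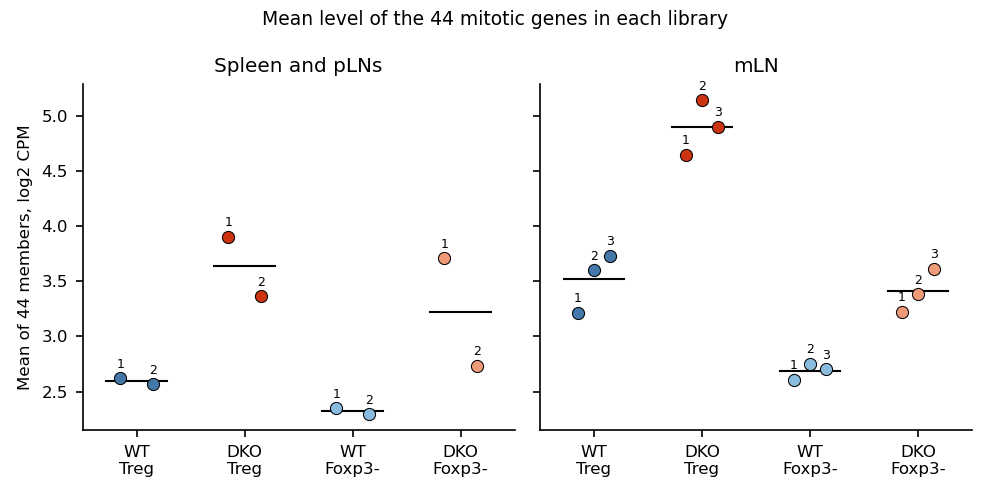
Mean over the 44 members of log2 CPM (y axis) in each library, by group (x axis), for spleen and pLNs and for mLN; points are libraries with their replicate number and lines are group means. Every DKO library lies above every WT library of its cell type, from 2.73 against 2.35 in CD4+Foxp3- cells of spleen and pLNs to 4.65 against 3.73 in mLN Treg cells, and the DKO replicates of spleen and pLNs lie far apart.

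By the authors' TPM values, which are per length and can be set against each other between genes, Smc4 stood first in both tables, at a mean of 57.6 TPM over the 8 spleen and pLN libraries and 199 TPM over the 12 mLN libraries. Cenpa, the histone H3 variant that marks the centromere, came second at 54.1 and 44.6 TPM. In spleen and pLNs the order of the pair varied between groups: Smc4 and Cenpa had means of 48.7 and 48.4 TPM in WT Treg cells, 109 and 82.8 in DKO Treg cells (SD 62.5 and 8.79, n = 2) and 35.5 and 54.3 in DKO CD4+Foxp3- cells. Cenpf, a large kinetochore protein, was the lowest by these means over libraries in both, at 0.170 and 0.854 TPM, and the medians over members were 4.76 and 8.43 TPM. Across libraries the members moved together: the correlation of each member's log2 CPM with the mean of the other 43 had a median of 0.97 over the 12 mLN libraries and 0.94 over the 8 spleen and pLN libraries, which share the 4 groups and so their differences. It was at least 0.9 for 42 members in mLN and for 32 in spleen and pLNs. Smc4 was the lowest in both, at 0.15 in mLN and 0.41 in spleen and pLNs. Racgap1 was the other member below 0.9 in mLN, at 0.86, while in spleen and pLNs 12 members lay below, Prc1 (0.61) and Mad2l1 (0.70) next after Smc4.

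**Figure D2:**
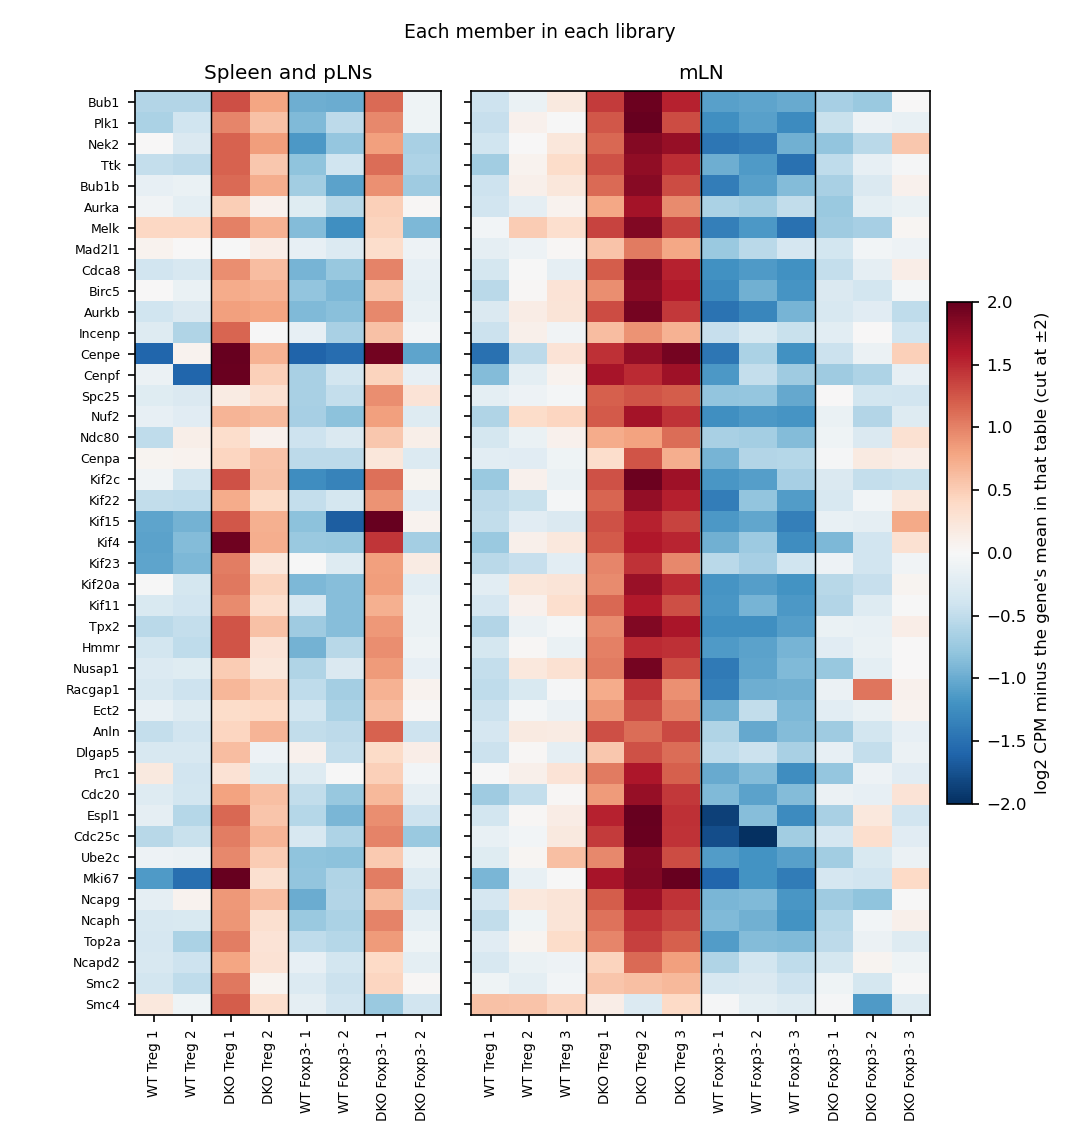
Each member (rows, ordered by role and by fold change in mLN Treg cells) in each library (columns), coloured by log2 CPM minus the gene's mean over the libraries of that table, with colours cut at -2 and 2. The mLN DKO Treg columns are above the gene mean in nearly all rows, replicate 1 of both DKO groups of spleen and pLNs is higher than replicate 2 in most rows, and the Smc4 row in mLN is lower in DKO than in WT Treg cells.

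In mLN, 43 of the 44 genes rose in DKO over WT Treg cells and none fell, by edgeR's quasi-likelihood test over all genes (calls needed an adjusted p no higher than 0.05 and at least a 1.5-fold change). Of all 16784 genes 8.5% were called higher and 3.43% lower in this comparison, and the median log2 fold change was 1.41 over the members and 0.00 over all genes. For the 43 that rose, every DKO library lay above every WT library, as it did for 21.3% of all genes. Smc4 was the remaining member, with every DKO library below every WT library (log2 fold change -0.42, adjusted p = 0.205). The count was 43 under every alternative fit, including each fit without 1 library. Markers of other cells also moved. In mLN Treg libraries the summed CPM of 10 B cell markers was 31.7 to 40.4 in WT and 42.1 to 107 in DKO mice, that of 7 CD8 and NK cell markers 29.1 to 35.5 and 86.2 to 171, that of 9 myeloid markers 3.06 to 5.26 and 14.6 to 54.9, and that of 6 germinal centre B cell markers 93.6 to 95.6 and 120.0 to 160.3. Of the CD8 and NK cell markers Klrb1c was called higher (means 6.54 CPM in WT and 112 in DKO) and Cd8b1 lower (18.6 and 3.41). Of the B cell markers 4 were called higher and 1 lower, Cd79b (30.2 and 9.62). The germinal centre gene called was Bcl6 (27.7 and 85.3). The 8 plasma cell markers summed to 261 to 284 and 255 to 775 CPM, and 6 erythroid markers to 3.14 to 4.60 and 21.3 to 121 CPM, of which Car2 was 20.2 to 120 in DKO. Of the plasma cell markers 2 were called higher and Prdm1 lower. The part of these cells in the result was not tested.

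All 8 mitotic kinases and checkpoint genes rose in mLN DKO Treg cells, with log2 fold changes from 0.89 to 1.75. Plk1, the polo-like kinase that drives mitotic entry and spindle assembly, was measured at 7.07, 10.3 and 9.74 CPM in WT against 23.1, 41.04 and 24.2 CPM in DKO libraries (log2 fold change 1.70 ± 0.22 (SE), adjusted p = 0.000386). Bub1b, which encodes the checkpoint protein BubR1, lay at 12.1, 17.4 and 18.99 against 35.6, 57.1 and 39.9 CPM (log2 fold change 1.46 ± 0.23 (SE), adjusted p = 0.00108). Mad2l1, whose product binds and inhibits the activator Cdc20 at unattached kinetochores, had the smallest rise of the role, from 23.7, 25.1 and 27.4 to 40.2, 55.3 and 46.1 CPM (log2 fold change 0.89 ± 0.14 (SE), adjusted p = 0.00109). Bub1, the partner kinase that recruits checkpoint proteins to the kinetochore, had the largest (1.75 ± 0.22). In these 4 genes no DKO library fell into the WT range.

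The 4 genes of the chromosomal passenger complex, which corrects faulty attachments between kinetochores and microtubules, rose together. Its kinase Aurkb was at 7.31, 9.92 and 10.7 CPM in WT against 22.1, 33.9 and 23.99 CPM in DKO Treg libraries (log2 fold change 1.52 ± 0.20 (SE), adjusted p = 0.000405). Birc5, which encodes survivin, was at 8.88, 13.1 and 15.4 against 24.4, 44.8 and 38.7 CPM (log2 fold change 1.53 ± 0.23 (SE), adjusted p = 0.000826). The scaffold Incenp rose less, with a log2 fold change of 0.86 ± 0.14, while Cdca8, which encodes borealin, rose by 1.73 ± 0.18 and had the lowest adjusted p among the 44, 0.000113.

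Among the 6 centromere and kinetochore genes, all of which rose, Cenpa was measured at 29.8, 29.5 and 32.4 CPM in WT against 43.99, 82.4 and 57.4 CPM in DKO Treg cells (log2 fold change 1.004 ± 0.18 (SE), adjusted p = 0.00235). Ndc80, the kinetochore subunit that grips the microtubule, rose from 7.73, 9.01 and 10.4 to 16.4, 17.2 and 21.3 CPM (log2 fold change 1.02 ± 0.18 (SE), adjusted p = 0.0023). Its partners Nuf2 and Spc25 had log2 fold changes of 1.33 ± 0.23 and 1.33 ± 0.18. The 2 very long transcripts of the role changed most: Cenpf went from 2.05, 3.31 and 3.93 to 11.8, 10.6 and 12.2 CPM (log2 fold change 1.90 ± 0.26 (SE), adjusted p = 0.000464), and Cenpe, a kinetochore kinesin that carries chromosomes to the metaphase plate, from 1.56, 3.06 and 5.31 to 12.1, 14.9 and 16.5 CPM (log2 fold change 2.14 ± 0.37 (SE), adjusted p = 0.00182).

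The 7 kinesins, motor proteins that slide, shorten or travel along spindle microtubules, rose with log2 fold changes from 1.31 to 1.89. Kif11, the motor that pushes spindle poles apart, was at 19.1, 25.9 and 30.5 CPM in WT against 53.999, 73.1 and 59.4 CPM in DKO Treg cells (log2 fold change 1.31 ± 0.18 (SE), adjusted p = 0.000459). Kif20a, which acts in cytokinesis, was at 11.01, 14.9 and 15.3 against 24.7, 42.2 and 36.1 CPM (log2 fold change 1.32 ± 0.21 (SE), adjusted p = 0.00111), and the chromosome-arm motor Kif22 at 6.66, 7.03 and 9.35 against 21.4, 32.3 and 27.9 CPM (log2 fold change 1.83 ± 0.21 (SE), adjusted p = 0.000177). The depolymerase Kif2c had the largest rise of the role (1.89 ± 0.24). Their order was not tested.

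The 8 genes of spindle assembly and cytokinesis rose as well. Tpx2, which activates Aurora A on the spindle, rose from 10.8, 14.9 and 15.8 to 31.1, 58.7 and 50.3 CPM (log2 fold change 1.75 ± 0.21 (SE), adjusted p = 0.000208). Prc1, the microtubule bundler of the central spindle, went from 9.78, 10.6 and 12.001 to 20.2, 30.2 and 22.7 CPM (log2 fold change 1.18 ± 0.20 (SE), adjusted p = 0.00151), and Racgap1, a component of centralspindlin that directs the cleavage furrow, from 31.1, 35.7 and 43.5 to 73.6, 119 and 83.6 CPM (log2 fold change 1.33 ± 0.28 (SE), adjusted p = 0.00527). All 4 regulators of anaphase and mitotic entry were also higher. Cdc20, the activator of the anaphase-promoting complex (APC/C), was at 8.22, 9.76 and 13.8 against 24.4, 44.99 and 35.99 CPM (log2 fold change 1.74 ± 0.23 (SE), adjusted p = 0.0004). Ube2c, the ubiquitin-conjugating enzyme that works with that complex, was at 8.55, 10.4 and 15.3 against 19.9, 36.4 and 25.1 CPM (log2 fold change 1.25 ± 0.24 (SE), adjusted p = 0.00373), and Espl1, which encodes the protease separase, at 4.85, 6.37 and 6.89 against 18.1, 24.9 and 17.1 CPM (log2 fold change 1.73 ± 0.27 (SE), adjusted p = 0.00104).

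Of the 7 genes of condensin and chromosome structure, 6 rose in mLN DKO Treg cells. Mki67, which encodes the Ki-67 coat protein of mitotic chromosomes, had the largest rise of all 44 members, from 11.998, 20.3 and 22.4 to 70.5, 80.999 and 95.1 CPM (log2 fold change 2.18 ± 0.24 (SE), adjusted p = 0.00013). Top2a, the topoisomerase that untangles sister chromatids, rose from 72.9, 88.7 and 110.5 to 168, 220.3 and 196 CPM (log2 fold change 1.11 ± 0.15 (SE), adjusted p = 0.000464). The non-SMC condensin I subunits Ncapd2 and Ncaph went from 60.2, 68.6 and 70.3 to 103, 166 and 133 CPM and from 8.96, 11.8 and 14.95 to 26.7, 34.4 and 31.8 CPM (log2 fold changes 1.01 ± 0.15 and 1.38 ± 0.20). Within the ATPase pair of condensin the 2 genes differed. Smc2 rose from 42.98, 39.9 and 43.8 to 67.1, 69.6 and 71.6 CPM (log2 fold change 0.72 ± 0.09 (SE), adjusted p = 0.000345), the smallest rise among the 43, whereas its partner Smc4 was at 631, 621 and 581 CPM in WT against 462, 349.6 and 555 CPM in DKO Treg cells and did not pass the test.

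**Figure D3:**
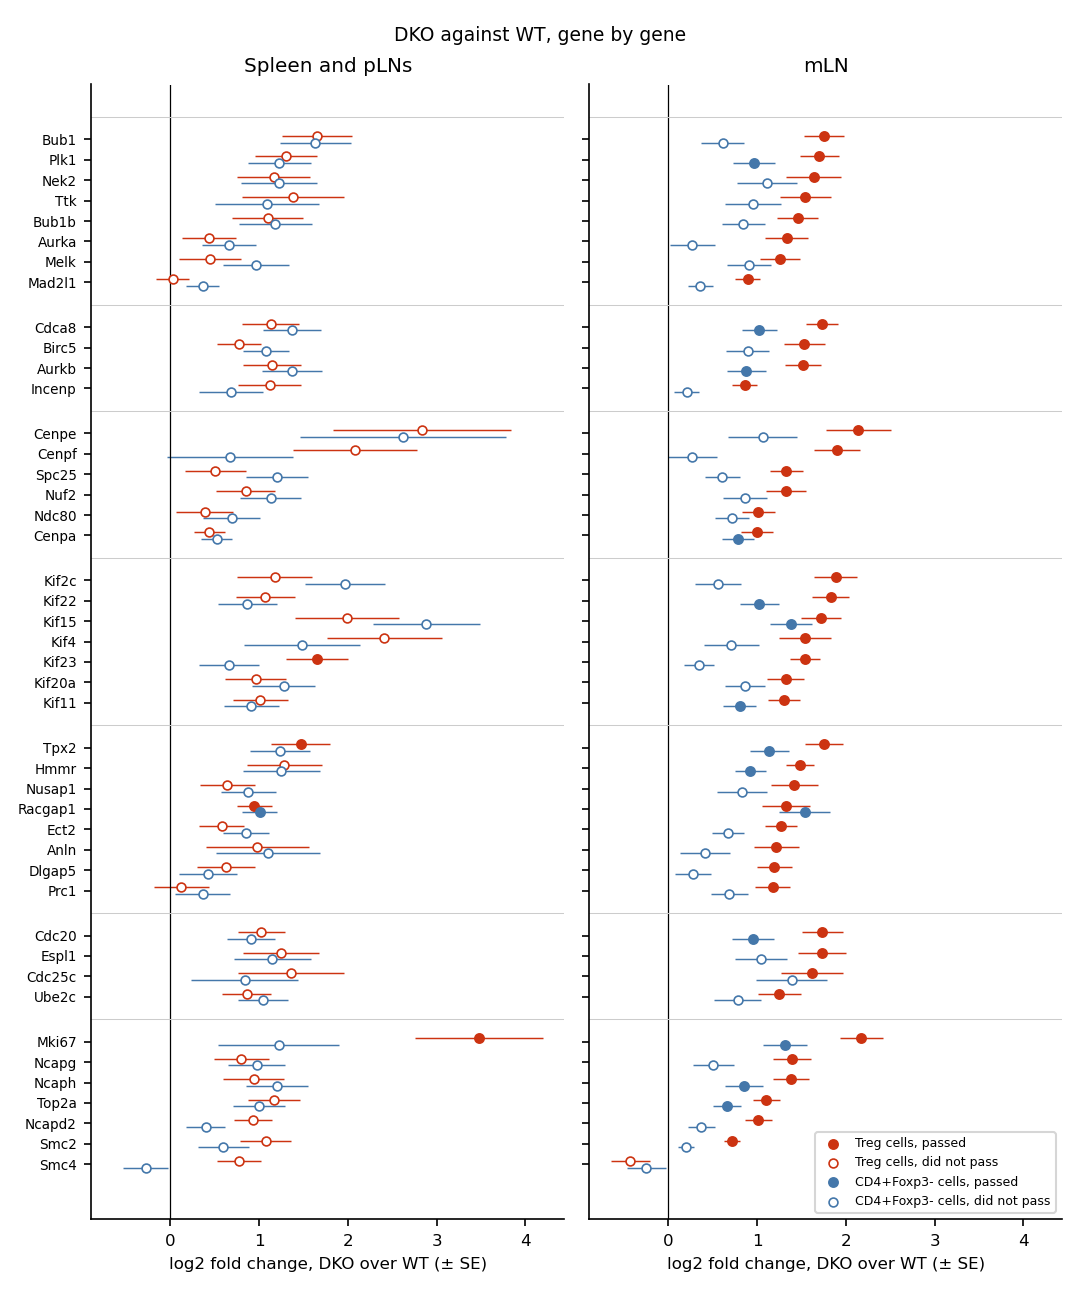
log2 fold change of DKO over WT (x axis, ± SE) for each member (y axis, grouped by role with lines between roles) in Treg cells and CD4+Foxp3- cells; filled points passed the test (adjusted p of at most 0.05 and fold of at least 1.5). In mLN Treg cells 43 members lie to the right of 0 with filled points and Smc4 lies to the left, while in spleen and pLNs 4 members passed in Treg cells and 1 passed in CD4+Foxp3- cells.

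In mLN CD4+Foxp3- cells 14 of the 44 genes rose in DKO mice and none fell. The background was 3.12% of genes called higher and 0.304% lower. The median log2 fold change was 0.82 over the members, 43 of them were positive, and in 35 every DKO library lay above every WT library, against 11.1% of all genes. The 14 came from all 7 roles: Plk1, Aurkb, Cdca8, Cenpa, Kif11, Kif15, Kif22, Tpx2, Hmmr, Racgap1, Cdc20, Ncaph, Top2a and Mki67, and each of them had also passed in mLN Treg cells. Mki67 was at 7.49, 9.79 and 8.58 CPM in WT against 17.8, 17.2 and 29.6 CPM in DKO libraries (log2 fold change 1.31 ± 0.25 (SE), adjusted p = 0.0152). Top2a was at 39.2, 46.6 and 46.5 against 59.3, 78.7 and 71.7 CPM (log2 fold change 0.66 ± 0.15 (SE), adjusted p = 0.0327) and Plk1 at 4.17, 4.59 and 4.09 against 7.18, 9.08 and 8.84 CPM (log2 fold change 0.96 ± 0.24 (SE), adjusted p = 0.0414). In each of the 3 every DKO library lay above every WT library.

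The largest log2 fold changes in these cells belonged to Racgap1, Cdc25c and Kif15. Racgap1 was at 17.2, 22.5 and 22.6 CPM in WT against 40.5, 93.03 and 46.7 CPM in DKO libraries (log2 fold change 1.54 ± 0.28 (SE), adjusted p = 0.0129), with DKO replicate 2 far above the other DKO libraries. Kif15, a spindle kinesin that backs up Kif11, was at 4.77, 5.13 and 4.09 against 9.49, 9.36 and 17.9 CPM (log2 fold change 1.38 ± 0.23 (SE), adjusted p = 0.00919), with replicate 3 the highest. Cdc25c, the phosphatase that activates Cdk1 at mitotic entry, was low at 0.426, 0.338 and 0.898 against 1.15, 1.83 and 1.24 CPM and did not pass (log2 fold change 1.39 ± 0.40 (SE), adjusted p = 0.076). At the other end stood Smc4 at -0.25 ± 0.22, Smc2 at 0.20 ± 0.09 and Incenp at 0.21 ± 0.14, none of which passed.

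The other fixed named members that did not pass in mLN CD4+Foxp3- cells had positive estimates throughout: Bub1b 0.85 ± 0.24, Mad2l1 0.36 ± 0.14, Birc5 0.89 ± 0.24, Cenpf 0.27 ± 0.28, Ndc80 0.72 ± 0.19, Kif20a 0.86 ± 0.22, Prc1 0.69 ± 0.21, Ube2c 0.78 ± 0.26, Espl1 1.04 ± 0.29 and Ncapd2 0.37 ± 0.15. The count of 14 depended on the fit. It was 0 with only the 2 groups compared, 25 with DESeq2's Wald test, and from 0 to 26 when 1 library was left out: 0 without WT replicate 1 or 2, 1 without WT replicate 3, 26 without DKO replicate 1 and 6 without DKO replicate 3. In these DKO libraries 8 plasma cell markers summed to 154 to 852 CPM, against 125 to 139 in WT, 7 CD8 and NK cell markers to 89.7 to 153 against 63.8 to 74.99, and 9 myeloid markers to 8.69 to 27.1 against 8.24 to 10.1. Of the CD8 and NK cell markers Klrb1c was called higher (means 75.6 CPM in DKO and 8.77 in WT) and Cd8b1 lower (8.01 and 22.2). The 10 B cell markers summed to 10.02 to 22.2 against 5.69 to 7.02 CPM, and 6 erythroid markers to 2.11 to 44.6 against 4.46 to 6.81 CPM, of which Car2 was 1.27 to 44.1 in DKO. The part of these cells in the result was not tested.

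Treg cells of mLN had higher levels than CD4+Foxp3- cells in WT mice already. Of the 44 members 27 passed and none fell, all 44 estimates were positive, and the median log2 fold change was 0.91. Of all genes, 6.91% were called higher in WT Treg cells and 3.14% lower. Melk, a mitotic kinase, had the largest difference, at 8.05, 11.9 and 10.6 CPM in WT Treg cells and 3.23, 3.78 and 2.99 CPM in WT CD4+Foxp3- cells (log2 fold change 1.60 ± 0.24 (SE), adjusted p = 0.000711). Cdc25c (1.43 ± 0.40) and Nuf2 (1.32 ± 0.25) followed, and the smallest were Kif23 (0.13 ± 0.17), Smc2 (0.23 ± 0.09) and Incenp (0.28 ± 0.14). Between 13 and 26 members passed when 1 library was left out, with 13 without WT Treg replicate 3. Sums over marker lists of other cells differed in these WT libraries as well: the B cell markers summed to 31.7 to 40.4 CPM in Treg and 5.69 to 7.02 CPM in CD4+Foxp3- libraries (Cd79b alone had a mean of 30.2 CPM in Treg cells, 1 of the 10 genes was called, and Pax5 and Cr2 were at 0 in all WT Treg libraries), the plasma cell markers to 261 to 284 and 125 to 139, and the CD8 and NK cell markers to 29.1 to 35.5 and 63.8 to 74.99. Of the 8 plasma cell markers 3 were called higher. In WT Treg libraries Tnfrsf17 was at 0, and Jchain and Derl3 had means of 2.13 and 0.511 CPM, beside 35.7 CPM for Prdm1. The part of other cells in the difference was not tested.

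In DKO mice the difference between the cell types of mLN was larger in size. Here 42 of 44 members were higher in Treg cells and none lower, beside 7.75% of all genes called higher and 3.49% lower, with a median log2 fold change of 1.64. Cenpf, Bub1 and Kif2c had the largest values, 2.09 ± 0.26, 2.09 ± 0.23 and 2.07 ± 0.24. Racgap1 (0.61 ± 0.27) and Smc4 (0.51 ± 0.22) were the members that did not pass, and Cenpa (0.73 ± 0.18) had the smallest difference among those that did. In these DKO libraries the B cell markers summed to 42.1 to 107 CPM in Treg and 10.02 to 22.2 CPM in CD4+Foxp3- cells and the myeloid markers to 14.6 to 54.9 and 8.69 to 27.1, and 3 of the 7 CD8 and NK cell markers were called lower in Treg cells. Their part in the difference was not tested.

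Whether the DKO difference itself differed between the cell types was tested as an interaction of genotype and cell type. In mLN the estimate was positive, that is larger in Treg cells, for 42 of 44 members, with a median of 0.61 on the log2 scale, beside 48.8% of all genes. An unadjusted p under 0.05 was held by 19 members and by 1827 of all 16784 genes. None of the members passed at an adjusted p of 0.05 in edgeR, where 0.119% of all genes were called higher and 0.161% lower. Kif23, a centralspindlin kinesin, was closest. Its CPM was 7.64, 8.10 and 9.54 in WT Treg, 21.8, 30.1 and 21.6 in DKO Treg, 7.66, 7.02 and 8.38 in WT CD4+Foxp3- and 10.4, 8.51 and 10.5 in DKO CD4+Foxp3- libraries (interaction 1.19 ± 0.24, adjusted p = 0.0576). Cenpf had the largest estimate (1.63 ± 0.38, adjusted p = 0.0911), and Smc4 and Racgap1 were the 2 members with negative estimates (-0.18 and -0.21). DESeq2 called 4 members (Cenpf, Smc2, Kif2c and Kif23), and the fit with a block for each replicate number within genotype, which pairs the cell types, called 1, Ncapd2, at an adjusted p of 0.0447. These calls were looked up by name after their values were seen.

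In Treg cells of spleen and pLNs all 44 estimates of DKO over WT were positive, with a median log2 fold change of 1.05 against 0.02 over all genes. An unadjusted p under 0.05 was held by 3345 of all 16357 genes and by 35 members. After adjustment 4 rose and none fell: Mki67, Racgap1, Kif23 and Tpx2. Of all 16357 genes tested 1.14% were called higher and 0.605% lower. In 41 members both DKO libraries lay above both WT libraries, which was so for 28.1% of all genes. The count was 27 with only the 2 Treg groups in the fit, 11 with DESeq2 and 0 after filterByExpr or with a robust prior, and without 1 library it lay between 0 and 13, being 0 without either WT replicate or DKO replicate 1 and 13 without DKO replicate 2.

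Mki67 was at 1.61 and 1.25 CPM in the WT against 27.5 and 4.44 CPM in the DKO Treg libraries of spleen and pLNs (log2 fold change 3.48 ± 0.72 (SE), adjusted p = 0.0361). Racgap1 was at 32.7 and 30.5 against 64.5 and 57.3 CPM (log2 fold change 0.95 ± 0.20 (SE), adjusted p = 0.0381), Kif23 at 2.997 and 3.34 against 12.7 and 7.24 CPM (log2 fold change 1.65 ± 0.35 (SE), adjusted p = 0.0388) and Tpx2 at 6.07 and 6.33 against 21.1 and 13.2 CPM (log2 fold change 1.47 ± 0.33 (SE), adjusted p = 0.0499). The value of Mki67 was 1.62 without DKO replicate 1 and 4.25 without DKO replicate 2. Of the 4, Racgap1 had the DKO replicates closest to each other. After Mki67 the largest estimates belonged to Cenpe and Kif4, and neither passed. Cenpe rested on 2 and 7 reads in the WT and 69 and 11 in the DKO libraries, a ratio of 7.58 with a 95% exact interval of 3.80 to 17.2 that covers counting error only. Kif4, a chromosome-arm kinesin, was at 0.845 and 0.974 against 6.81 and 2.94 CPM.

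The remaining named members had these values in Treg cells of spleen and pLNs, and none passed. Plk1 was at 4.23 and 5.01 CPM in WT against 12.99 and 9.83 CPM in DKO libraries, and Bub1b at 9.61 and 9.81 against 23.8 and 17.7 CPM. Aurkb was at 5.53 and 5.99 against 12.9 and 12.6 CPM, and Cdc20 at 10.8 and 9.95 against 22.5 and 19.7 CPM. Top2a was at 31.7 and 25.96 against 81.6 and 48.3 CPM, and Ncapd2 at 44.6 and 41.6 against 96.05 and 67.99 CPM (log2 fold change 0.93 ± 0.21 (SE), adjusted p = 0.0528). In each of these 6 both DKO libraries were higher, with replicate 1 above replicate 2. The smallest estimates were those of Mad2l1, at 29.8 and 28.5 against 28.3 and 31.2 CPM (0.03 ± 0.18), Prc1 (0.12 ± 0.31) and Ndc80 (0.39 ± 0.32). Birc5, Cenpa, Cenpf, Kif11, Kif20a, Kif22, Ube2c, Espl1, Smc2 and Ncaph lay between, from 0.44 for Cenpa to 2.08 for Cenpf (1.15 without DKO replicate 1).

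Gene length moved with part of this result. In DKO Treg replicate 1 of spleen and pLNs the shortest 10% of genes lay 0.27 below and the longest 10% lay 0.47 above their mean over libraries (median, log2 CPM), whereas the other 7 libraries of the table stayed between -0.20 and 0.12. Among the members the log2 fold change in these Treg cells had a Pearson correlation of 0.60 with log2 gene length, across 44 genes that share the libraries, and the medians were 0.86 for the 11 shortest and 1.24 for the 11 longest members. The corresponding correlations were 0.18 in CD4+Foxp3- cells of the same tissue, 0.19 in mLN Treg cells and -0.06 in mLN CD4+Foxp3- cells. With a correction for length, chosen after seeing the data, the median over members was 0.91, 7 members passed, and the log2 fold change of Mki67 was 2.74, that of Cenpe 2.26 and that of Cenpf 1.42. In mLN the corrected median in Treg cells was 1.31.

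**Figure D4:**
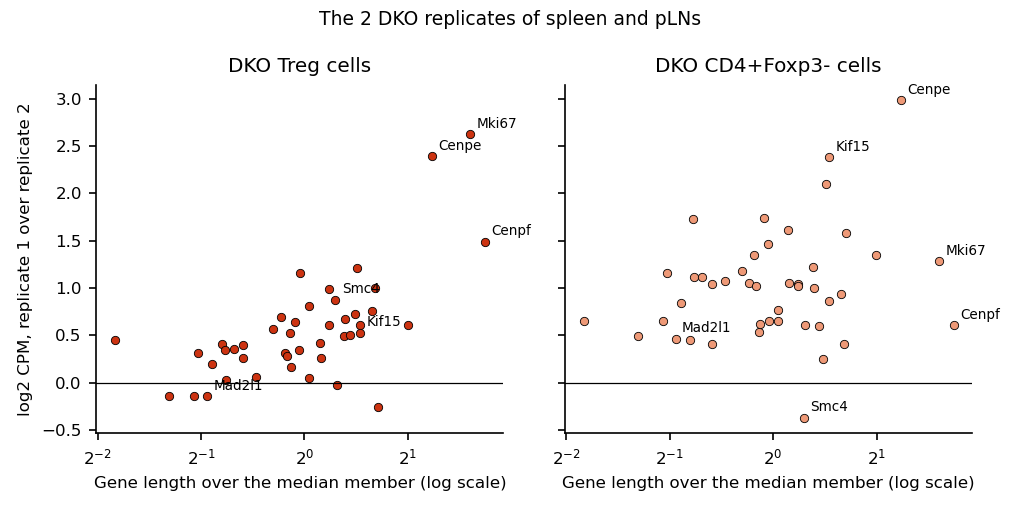
log2 ratio of CPM in DKO replicate 1 over DKO replicate 2 (y axis) against gene length relative to the median member (x axis, log scale) for the 44 members in Treg cells and CD4+Foxp3- cells of spleen and pLNs. In Treg cells 39 members lie above 0 and the ratio is largest for the long genes Mki67, Cenpe and Cenpf, and in CD4+Foxp3- cells 43 lie above 0, with Smc4 below.

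In CD4+Foxp3- cells of spleen and pLNs the median log2 fold change of DKO over WT was 1.02, 43 of 44 estimates were positive and 29 had an unadjusted p under 0.05, but 1 member passed, Racgap1, at 28.6 and 25.4 CPM in WT against 65.7 and 42.7 CPM in DKO libraries (log2 fold change 1.01 ± 0.20 (SE), adjusted p = 0.0438). Here 0.77% of all genes were called higher and 0.0489% lower, 47.7% had positive estimates, and 2102 of 16357 had an unadjusted p under 0.05. Both DKO libraries lay above both WT libraries in 37 members and in 20.8% of all genes. The replicates stood far apart: replicate 1 was higher than replicate 2 in 43 members, by a median of 1.002 on the log2 scale, where the median over all genes was 0. The call was lost with only the 2 groups in the fit (adjusted p = 0.574), after filterByExpr and with a robust prior, where no member passed. A fit without 1 library leaves a group with a single library, which is assumed to vary like the other groups. Without DKO replicate 2, 32 members passed with a median of 1.42, and without DKO replicate 1 none did, with a median of 0.41 and 41 positive estimates.

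Kif15 had the largest estimate in these cells, at 3.72 and 2.09 CPM in WT against 36.04 and 6.89 CPM in DKO libraries (log2 fold change 2.88 ± 0.60 (SE), adjusted p = 0.0515), a value that was 1.23 without DKO replicate 1 and 3.62 without DKO replicate 2. Kif2c, after Cenpe, came next, at 1.29 and 1.21 against 6.59 and 3.19 CPM (log2 fold change 1.97 ± 0.45 (SE), adjusted p = 0.074). The log2 fold change of Kif2c was 1.34 to 2.39 with 1 library left out. Cenpe had 2 reads in each WT library and 28 and 3 in the DKO libraries, a ratio of 6.74 with a 95% exact counting interval of 2.38 to 26.3. Of the members with fixed names, Mki67 was at 2.05 and 2.33 against 7.22 and 2.96 CPM, Plk1 at 3.57 and 4.58 against 12.8 and 6.22 CPM, and Top2a at 28.4 and 26.9 against 72.3 and 37.9 CPM. In all 3 DKO replicate 1 lay well above replicate 2. Smc4 (-0.28 ± 0.25), Mad2l1 (0.37 ± 0.19) and Prc1 (0.37 ± 0.31) had the smallest estimates, and Smc4 was the one below 0.

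Markers of other cells differed between the DKO and WT libraries of spleen and pLNs too. In Treg libraries 12 myeloid markers summed to 14.1 to 39.7 CPM in DKO and 3.23 to 5.43 CPM in WT mice, and 7 CD8 and NK cell markers to 107 to 143 and 27.98 to 31.1 CPM. Of the latter 3 were called higher and none lower, and Klrb1c alone had means of 98.2 and 6.68 CPM. In CD4+Foxp3- libraries the myeloid sums were 23.3 to 34.2 and 9.11 to 10.3 CPM, those of 10 B cell markers 25.3 to 47.7 and 14.1 to 17.1 CPM, those of the erythroid markers 16.1 to 38.7 and 8.68 to 10.1 CPM (Car2 alone 12.7 to 36.97 and 7.88 to 8.89), and the 7 plasma cell markers found in the table summed to 211 to 724 and 154 to 172 CPM. The 9 erythroid markers in the table summed to 167 to 202 CPM in DKO Treg libraries and 6.23 to 6.54 CPM in WT, but Car2 made up 166 to 199 of the former and none of the other 8 exceeded 0.744 CPM. The B cell sums were 23.4 to 62.3 CPM in DKO and 34.5 to 38.8 CPM in WT Treg libraries, but the genes moved in both directions. Of the 10 estimates 8 were positive (median 1.88), Ms4a1 was called higher (means 3.44 and 0.143 CPM) and Cd79b lower (6.46 and 27.5). Sums of 7 germinal centre markers were 104 to 131 and 109.8 to 126 CPM, and those of 7 plasma cell markers 305 to 339 and 281 to 291 CPM. Igj was the plasma cell gene called, with means of 51.9 and 4.04 CPM. The part of other cells in these results was not tested.

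Between Treg and CD4+Foxp3- cells of spleen and pLNs few of these genes passed. In WT mice none of the 44 passed in edgeR, while 2.48% of all genes were called higher in Treg cells and 1.52% lower. Of the members 34 had positive estimates, with a median of 0.26, beside 46.0% of all genes. An unadjusted p under 0.05 was held by 7 members and by 2243 of all 16357 genes, which is a similar share. DESeq2 called 1 member, and edgeR with only the 2 groups in the fit called 8. Melk had the largest estimate, at 11.8 and 11.8 CPM in WT Treg and 4.86 and 3.78 CPM in WT CD4+Foxp3- libraries (log2 fold change 1.45 ± 0.37 (SE), adjusted p = 0.0513), followed by Kif2c (1.07 ± 0.46) and Cenpe (1.02 ± 1.29). The 10 members with negative estimates were Kif23 (-0.85), Mki67 (-0.61), Kif4 (-0.21), Cenpf (-0.18), Dlgap5 (-0.15), Ncapd2 (-0.10), Kif22 (-0.09), Smc2 (-0.09), Incenp (-0.04) and Cdc25c (-0.03), and none of these passed.

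In DKO mice 1 of the 44 was called higher in Treg than in CD4+Foxp3- cells of spleen and pLNs, Smc4, at 300.3 and 164 against 77.2 and 99.7 CPM (log2 fold change 1.39 ± 0.25 (SE), adjusted p = 0.00813). Of all genes 2.16% were called higher and 1.61% lower. Mki67 and Cenpf also had large estimates, with DKO Treg replicate 1 far above replicate 2 in both. Mki67 was at 27.5 and 4.44 against 7.22 and 2.96 CPM (1.64 ± 0.64), and Cenpf at 3.26 and 1.16 against 1.13 and 0.741 CPM (1.23 ± 0.65). Below 0 were Kif15 (-0.72), Spc25 (-0.40), Prc1 (-0.18), Ndc80 (-0.11), Mad2l1 (-0.08), Nusap1 (-0.06) and Anln (-0.04). The count was 18 without DKO CD4+Foxp3- replicate 1, 2 without DKO Treg replicate 2 and 0 without DKO Treg replicate 1. It was also 0 with the replicate number as a block within genotype, after filterByExpr, with a robust prior and with only the 2 groups in the fit. The interaction of genotype and cell type called no member by edgeR or by DESeq2, and of all genes 0% were called higher and 0.00611% lower. An unadjusted p under 0.05 was held by 2 members and by 905 of all 16357 genes, which is a similar share. Interaction estimates were largest for Mki67 (2.26 ± 0.97), Cenpf (1.41 ± 0.999) and Smc4 (1.05 ± 0.35), and lowest for Kif15 (-0.89 ± 0.82), Kif2c (-0.79 ± 0.61) and Spc25 (-0.69 ± 0.49). They were positive for 21 members, with a median of -0.06. For Mki67, Cenpf and Smc4 DKO Treg replicate 1 lay well above replicate 2, and for Kif15, Kif2c and Spc25 DKO CD4+Foxp3- replicate 1 did. Without DKO Treg replicate 1 the DKO over WT Treg values fell from 3.48 to 1.62 (Mki67), 2.08 to 1.15 (Cenpf) and 0.77 to 0.27 (Smc4). The CD8 and NK cell markers summed to 107 to 143 CPM in DKO Treg and 163 to 239 CPM in DKO CD4+Foxp3- libraries of spleen and pLNs, and to 27.98 to 31.1 and 114 to 166 CPM in WT, where 3 of the 7 were called lower in Treg cells. Their part in the differences between cell types was not tested.

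Smc4 differed from the other members in mLN. It encodes an ATPase subunit that both condensin complexes contain, and lies at chr3:68808660-68838545 on NCBIM37. In mLN it made up 43.8% to 53.9% of the summed CPM of the 44 genes in WT Treg libraries and 15.4% to 25.9% in DKO Treg libraries, as the sum of the other 43 went from 541 to 744 CPM up to 1325 to 1924 CPM. In CD4+Foxp3- cells it was at 413, 368 and 353 CPM in WT against 414, 192 and 351 CPM in DKO mLN libraries, and at 115 and 99.5 and 77.2 and 99.7 CPM in spleen and pLNs, so the groups overlapped in both tissues. In Treg cells of spleen and pLNs the direction was the opposite of mLN: 149 and 122 CPM in WT against 300.3 and 164 CPM in DKO libraries (log2 fold change 0.77 ± 0.25 (SE), adjusted p = 0.115). Neither difference passed the test. The value in spleen and pLNs was 0.27 without DKO Treg replicate 1, the library with the gene length trend, 1.14 without DKO Treg replicate 2 and 0.61 with the length correction. The difference between tissues was not tested.

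**Figure D5:**
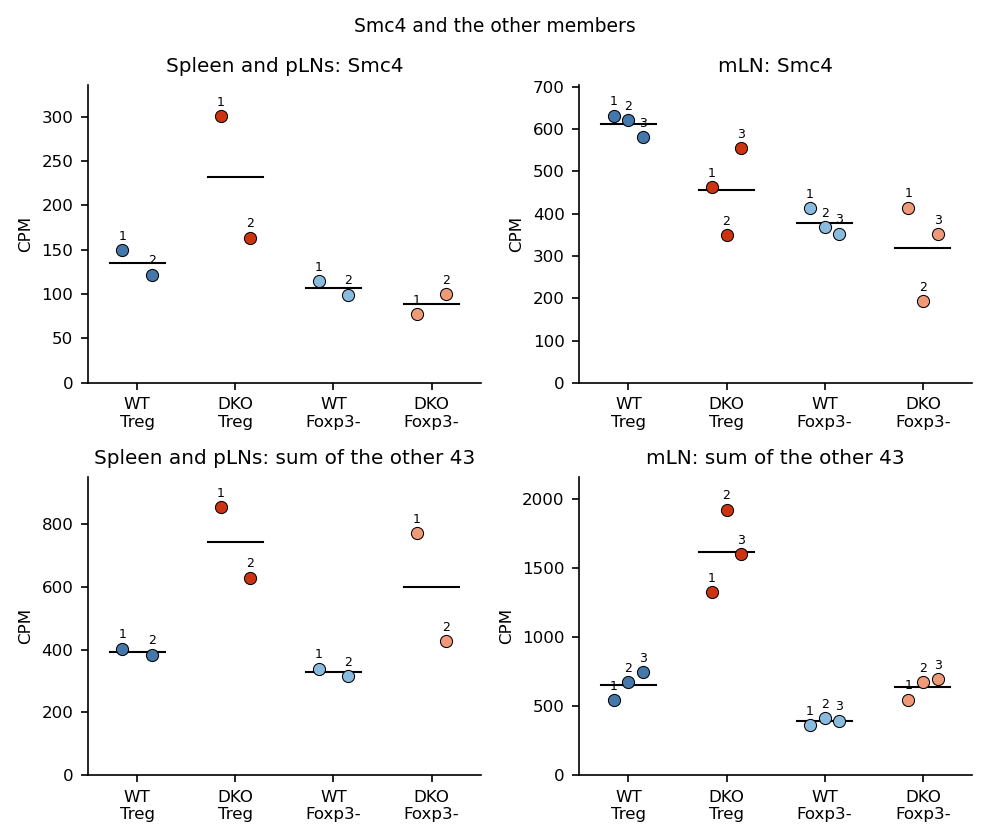
CPM of Smc4 (top) and summed CPM of the other 43 members (bottom) in each library by group, with points for libraries, replicate numbers beside them, lines for group means and axes that start at 0. In mLN the WT Treg libraries hold 581 to 631 CPM of Smc4 and the DKO Treg libraries 350 to 555, while the other 43 genes move the opposite way.

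Other genes of the same processes were described by lists chosen with earlier results of these data known. Of 57 further spindle and kinetochore genes, 48 were called higher in mLN DKO over WT Treg cells and none lower, against 8.5% of all genes called higher, with a median log2 fold change of 1.41. The 5 with the largest changes among those were Depdc1a (2.03 ± 0.31, mean 12.5 CPM in DKO against 3.08 in WT), Aspm (2.02 ± 0.25), Cit (2.01 ± 0.32), Ccnb2 (1.96 ± 0.25) and Pbk (1.96 ± 0.26). Ccnb2 is a mitotic cyclin and Aspm a spindle pole protein. In mLN CD4+Foxp3- cells 8 passed, against 3.12% of all genes, among them Ccnb1, Ccnb2, Ska1, Pbk and Aspm, and in spleen and pLNs none of the 55 tested passed in either cell type, with median log2 fold changes of 0.85 and 1.01 and 27 and 32 genes at an unadjusted p under 0.05. Of 40 DNA replication genes 29 rose in mLN DKO Treg cells, with a median of 0.96 and the largest changes in Orc1, Ticrr and Chaf1a, and 6 rose in mLN CD4+Foxp3- cells, with a median of 0.33. In spleen and pLNs none of the 39 tested passed in edgeR, with medians of 0.51 in Treg and 0.62 in CD4+Foxp3- cells and 18 and 27 genes at an unadjusted p under 0.05. The lists were not tested against each other.

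The other lists were read against the 8.5% of all genes called higher in mLN DKO Treg cells. Of 17 constitutive mitotic subunits 1 rose, Rcc1 (0.72 ± 0.14), and of 14 APC/C subunits 1 rose, Ube2s (0.69 ± 0.09), with medians of 0.37 and 0.11. In the first list 15 of 17 estimates were positive and 11 had an unadjusted p under 0.05, beside 50.4% and 5445 of all 16784 genes. Of 12 cohesin genes 1 rose, the S phase acetyltransferase Esco2 (1.18 ± 0.23), with a median of -0.04. The counts of called genes in these 3 lists lie near the background of 8.5%. In Treg cells of spleen and pLNs the cohesin list had a median of 0.46, with 9 of 12 positive and 6 at an unadjusted p under 0.05. Of all 16357 genes there 51.1% were positive and 3345 had an unadjusted p under 0.05. Of 3 genes particular to condensin II 1 rose, Ncapg2 (1.18 ± 0.16). Among 12 genes for DREAM and MMB subunits and Foxm1, the factors that bind CHR promoters, 3 rose: Mybl2, the B-MYB subunit (2.05 ± 0.20), Foxm1 (1.57 ± 0.28) and Tfdp1 (0.65 ± 0.10). The median of that list was -0.03. None of these 5 lists held a gene called lower in DKO over WT cells in any of the 4 comparisons, and in spleen and pLNs the single call was Foxm1 in Treg cells (1.86 ± 0.36, adjusted p = 0.0259). There the DREAM, MMB and Foxm1 list had a median of -0.27, with 4 of 12 estimates positive and 8 at an unadjusted p under 0.05, beside 3345 of all 16357 genes at that p.

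The genes outside the 44 whose log2 CPM followed the member mean most closely were ranked by the lower of their correlations over 8 spleen and pLN and 12 mLN libraries, among the 9980 genes that averaged 1 CPM or more in both tables. The first 10 were Kif18b, Mybl2, Tacc3, Uhrf1, Chaf1a, Pole, Pola1, Ncapg2, Lig1 and Cep55, with lower correlations from 0.99 for Kif18b to 0.97 for Cep55. Kif18b, Tacc3 and Cep55 act on the spindle or in abscission, and Pole, Pola1, Lig1 and Chaf1a act at the replication fork. The libraries share 4 groups per tissue, so these values describe likeness of pattern over the groups. Their likeness to the member mean fixes how they differ between the groups, so their log2 fold changes in mLN DKO over WT Treg cells, from 0.79 for Pola1 to 2.05 for Mybl2, are given as a description.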

How the data were processed

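Libraries were stranded mRNA libraries read as 50-base single ends. The authors aligned reads to mm9 with TopHat2 2.1.1, allowing each read 1 alignment. Reads per RefSeq gene were then counted by the authors with featureCounts (Subread 1.4.3-p1). They deposited raw counts per gene and, beside them, TPM, in 1 table per tissue. TPM was used here only to compare levels between genes. Genes with near-identical copies may lose reads at that alignment setting.

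The 44 members and all gene lists were chosen with earlier results of these data known. Genes with at least 1 count in a table were tested with edgeR 4.0.16 (R 4.3.3, TMM factors, quasi-likelihood test, 4 groups of a table in 1 fit, 2-sided, Benjamini-Hochberg adjustment over all genes). Calls needed an adjusted p no higher than 0.05 and at least a 1.5-fold change, an interaction at the adjusted p alone. Log2 CPM for means over members used a prior count of 2. Members named with values were 2 to 6 chosen per role, the 3 largest and 3 smallest changes of a comparison, and members against the common direction; of other lists at most 5 called genes with the largest changes; and the 10 genes that followed the member mean most closely. DESeq2 1.42.0 (Wald test) was an alternative, and the script was tested on simulated data. Figures and sequence searches used Python 3.11.15.

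Replicates are separate sorted samples; where the labels do not tie them to separate mice, p-values measure only the spread between these samples. No 2 replicates agreed within sampling noise. In mLN, libraries of the 2 cell types with the same replicate number and genotype deviated together (Pearson r of deviations from group means 0.11 to 0.39 in all 6 pairs), so the numbers were taken to pair cell types within a genotype. Across genotypes r lay from -0.02 to 0.11, so the DKO replicate 1 pair, at 0.11, lay no higher than the highest of these. The main fits did not use the pairing, which was run as an alternative. With 2 replicates, in spleen and pLNs, r was 0.19 to 0.34 and pairing was not assumed. Intervals cover counting error only.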

Additional observations from a re-analysis of the deposited data

Results flagged for a closer look

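Smc4 was picked out because its difference between DKO and WT Treg cells pointed in opposite directions in the 2 tissues, with no overlap between genotypes in either. The log2 fold change was 0.77 in spleen and pLNs, where both DKO libraries lay above both WT libraries, and -0.42 in mLN, where all 3 DKO libraries lay below all 3 WT libraries. In spleen and pLNs it was 0.27 (adjusted p = 0.796 by edgeR) without DKO Treg replicate 1, the library with the gene length trend, and 0.61 with the length correction. Neither passed the adjusted test with all libraries, the tables were normalised separately, and the difference between tissues was not tested.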

How the results depend on the processing

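Among fits of the 44 genes, the 43 calls in mLN Treg cells and the 42 between DKO cell types in mLN (40 to 43) kept their size under every alternative. For DKO over WT Treg cells of spleen and pLNs 4 became 11 with DESeq2, 27 with only the 2 groups, 0 after filterByExpr and with a robust prior, 7 with a gene length correction with or without the replicate block, and 0 to 13 without 1 library. In CD4+Foxp3- cells there 1 became 2 with DESeq2 size factors, 7 with DESeq2, 0 after filterByExpr, with 2 groups and with a robust prior, 2 with the length correction, 0 with it and the replicate block, and 0 to 32 without 1 library. For WT cell types in spleen and pLNs 0 became 1 with DESeq2, 8 with 2 groups, 1 with the replicate block and 1 with the length correction, with or without that block. For DKO cell types there 1 became 0 after filterByExpr, with 2 groups, with a robust prior and with the replicate block within genotype, and 0 to 18 without 1 library. The interaction there gave 0 to 1. In mLN CD4+Foxp3- cells 14 became 25 with DESeq2, 0 with 2 groups, 22 with the replicate block, 9 with a robust prior and 0 to 26 without 1 library. For WT cell types in mLN 27 became 13 to 26 without 1 library, and the interaction gave 4 with DESeq2, 1 with the replicate block within genotype, 1 with the length correction and replicate block, and 0 to 2 without 1 library. In spleen and pLNs leaving out 1 library leaves a group with 1, assumed to vary like the other groups. The length correction was chosen after seeing the data. The cause of these changes was not tested.

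The replicate block gave 6 and 1 calls for DKO over WT in Treg and CD4+Foxp3- cells of spleen and pLNs, and 43 in mLN Treg cells. Across genotypes the samples share a number only. In spleen and pLNs the paper took both DKO cell types from the same littermates, but the labels do not say whether a replicate number marks the same mouse. In mLN the pairing of cell types within genotype gave 29 and 43 calls between cell types of WT and DKO mice and changed no count of calls there by over 1.5 times except the interaction.

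The difference in the member mean between DKO cell types of spleen and pLNs was -0.075 to 0.90 without 1 library, turning without DKO CD4+Foxp3- replicate 2. The other 79 values of member means kept their direction within 1 replicate SD. Without 1 library, the log2 fold changes of Mad2l1 (-0.047 to 0.095) and Prc1 (-0.17 to 0.44) in Treg cells of spleen and pLNs, of Cdc25c in CD4+Foxp3- cells there (-0.28 to 1.44) and of Smc4 in mLN CD4+Foxp3- cells (-0.47 to 0.027) turned. With 2 libraries per group and few reads, changes in genes such as Cenpe in spleen and pLNs were barely resolved.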
